A study of Rattus norvegicus with 28 samples.

Results

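The 32 genes described here encode enzymes of the tricarboxylic acid (TCA) cycle and of fatty acid oxidation. They were picked by exact gene symbol, with no measured value used, and all 32 were listed in each of the 28 count files. Those files held 23139 symbols for microglia, 20268 for the astrocyte libraries of the ENV set and 20056 for those of the LPS set. By role, 17 genes belong to the TCA cycle with its NADP-linked and cytosolic side reactions, and 15 belong to fatty acid oxidation.

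The study exposed primary rat glia to the envelope protein of human endogenous retrovirus W (HERV-W ENV) or to lipopolysaccharide (LPS), a component of bacterial walls. Microglia, the macrophages of the brain, formed 4 groups of 3 libraries, which received ENV at 1 µg/ml, its buffer, LPS at 100 ng/ml, or H2O as the LPS vehicle. Astrocytes, the glia that feed and support neurons, formed the same 4 groups with 4 libraries each. All cells came from cortices of Wistar rats at postnatal day 1, cultured for 10 days, and were treated 1 day (microglia) or 3 days (astrocytes) after isolation in medium with 10% serum. Microglia were shaken off and purified on CD11b/c beads. How long the stimulation lasted and whether replicates came from separate animals were not stated in the labels, so the p-values capture only library-to-library spread, part of which may be technical.

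The TCA cycle burns acetyl-CoA in mitochondria and hands the electrons to the respiratory chain. Fatty acids feed it after carnitine-dependent entry and rounds of dehydrogenation, hydration, a further dehydrogenation and thiolysis, each round trimming the chain by an acetyl unit. Citrate and malate can also leave the mitochondrion for the cytosol. There ATP citrate lyase and malic enzyme turn them into acetyl-CoA and NADPH for lipid synthesis and redox defence. In macrophages stimulated with LPS, a remodelled cycle that diverts citrate toward itaconate is a well-known feature.

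Library totals were 26513999 to 42724111 counts in microglia and 23742228 to 35326938 in astrocytes. Levels are given as normalised CPM, counts scaled to the effective library size (the total of the tested genes times its TMM scaling factor). The scaling was done within each treated comparison, and apart from these for the vehicle contrast, so CPM of different comparisons share no common scale. Gene lengths were not used, so levels are compared between samples and not between genes. The 10 markers of microglia and macrophages summed to 5383 to 11613 CPM in microglial libraries and 107.5 to 820.4 CPM in astrocyte libraries. The 10 astrocyte markers summed to 26.3 to 281.5 CPM in microglia, where Gjb6 was at 0 in every library, and 2492 to 10995 CPM in astrocytes. In the microglial LPS set, replicates 3 stood apart: microglial markers were at 5383 CPM in LPS replicate 3, against 10080 and 8181 CPM in the other LPS libraries, and oligodendrocyte lineage markers were at 156.1 CPM in H2O replicate 3, against 15.4 and 15.5 CPM in the other H2O libraries. Among astrocytes of the LPS set, replicates 1 and 2 had lower astrocyte markers (2492 to 6630 CPM) than replicates 3 and 4 (7599 to 10995 CPM).

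Promoter sequence was available from RefSeq (build GRCr8) for 29 of the 32 genes, as 250 bases before to 50 bases after the start of each gene. The 5 printed here belong to members on which the microglial results turn: 3 with large shifts under both stimuli (Me1, Fh and Hsdl2) and a pair of acyl-CoA dehydrogenases that moved in opposite directions with ENV (Acadm and Acadvl). They lie at chr8:96540195-96540494 (Me1, minus strand), chr13:90082401-90082700 (Fh, minus strand), chr5:79238631-79238930 (Hsdl2, plus strand), chr2:245542815-245543114 (Acadm, minus strand) and chr10:55236656-55236955 (Acadvl, minus strand). Each is given 5′ to 3′ on the strand of its gene, with matches to 4 motifs in capitals: the nuclear receptor hexamer AGGTCA, the core ACGTG bound by hypoxia-inducible factors, the palindrome of nuclear respiratory factor 1 (NRF1) and the NF-kB consensus.
Me1: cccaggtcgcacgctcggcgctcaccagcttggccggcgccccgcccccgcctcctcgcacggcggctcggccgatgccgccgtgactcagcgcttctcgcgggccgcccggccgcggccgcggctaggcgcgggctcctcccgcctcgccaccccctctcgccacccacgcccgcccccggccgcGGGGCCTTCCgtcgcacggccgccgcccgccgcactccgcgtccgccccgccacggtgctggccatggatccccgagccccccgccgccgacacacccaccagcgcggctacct
Fh: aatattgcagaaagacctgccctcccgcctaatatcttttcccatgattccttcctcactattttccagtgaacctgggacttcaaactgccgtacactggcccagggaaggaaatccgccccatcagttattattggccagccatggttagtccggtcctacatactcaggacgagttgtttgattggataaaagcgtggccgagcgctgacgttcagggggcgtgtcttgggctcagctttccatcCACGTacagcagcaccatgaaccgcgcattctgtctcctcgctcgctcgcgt
Hsdl2: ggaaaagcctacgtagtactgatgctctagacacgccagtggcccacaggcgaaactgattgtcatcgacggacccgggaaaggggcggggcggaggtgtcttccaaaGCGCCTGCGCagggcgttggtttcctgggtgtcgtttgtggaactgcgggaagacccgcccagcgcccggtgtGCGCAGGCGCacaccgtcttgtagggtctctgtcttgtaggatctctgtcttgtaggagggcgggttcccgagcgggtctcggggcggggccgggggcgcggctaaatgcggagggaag
Acadm: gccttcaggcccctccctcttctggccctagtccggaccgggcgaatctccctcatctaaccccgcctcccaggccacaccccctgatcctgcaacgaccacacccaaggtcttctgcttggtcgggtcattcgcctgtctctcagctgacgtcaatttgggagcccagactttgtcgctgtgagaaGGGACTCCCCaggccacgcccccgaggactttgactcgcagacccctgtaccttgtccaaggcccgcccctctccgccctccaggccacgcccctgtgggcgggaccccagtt
Acadvl: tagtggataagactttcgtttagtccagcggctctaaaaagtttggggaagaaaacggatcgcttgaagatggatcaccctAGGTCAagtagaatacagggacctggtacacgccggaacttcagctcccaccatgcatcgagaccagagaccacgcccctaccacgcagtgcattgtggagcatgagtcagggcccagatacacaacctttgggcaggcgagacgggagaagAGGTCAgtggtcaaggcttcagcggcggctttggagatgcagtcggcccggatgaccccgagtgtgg

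With position 1 as the first transcribed base and position -1 just before it, the NF-kB match lies at -64 to -55 in Me1 and at -63 to -54 in Acadm. The hypoxia core spans the start of Fh, from -2 to 3, on the opposite strand. Hsdl2 holds the NRF1 palindrome at -142 to -133 and, on the opposite strand, at -69 to -60, and Acadvl holds the hexamer at -169 to -164 and at -17 to -12. Both strands of all windows were searched. The hexamer was found in 4 of 29 members (13.8%), against 16.2% of all 33469 promoters, and the hypoxia core in 5 of 29 (17.2%), against 19.3%. The NRF1 palindrome was found in 4 of 29 members (Sucla2, Hsdl2, Etfb and Etfdh; 13.8%), against 4.25% of all promoters. The NF-kB consensus was found in 3 of 29 members (Dlst, Me1 and Acadm; 10.3%), against 7.51%. The element TCAAGGTCA of the estrogen-related receptors, which contains the hexamer, was found in 0 of 29 members and 0.433% of promoters, and the DR1 pair of hexamers in 0 of 29 members and 0.0538% of promoters. Hadha and Hadhb, which encode the alpha and beta subunits of the mitochondrial trifunctional protein, start head to head: their windows, chr6:31907551-31907850 on the plus strand and chr6:31907451-31907750 on the minus strand, overlap.

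In microglia treated with ENV, the malic enzymes Me1 and Me2 and fumarase rose, the short-chain and very-long-chain acyl-CoA dehydrogenases rose, and the medium-chain and long-chain ones fell. Of these dehydrogenase calls, only that of the medium-chain gene held in all 6 fits without 1 library. Of the 32 genes, 7 were called higher and 7 lower at an adjusted p under 0.05 (edgeR's quasi-likelihood test, Benjamini-Hochberg adjustment over all tested genes), and 18 were not called. That is 43.8% of the members, where 30.9% of all 12844 genes tested were called (16.2% higher, 14.7% lower). The median log2 change of the members was 0.09, beside -0.03 for all genes. The heat map of log2 changes shows all members in the 4 treated comparisons. Groups are described as apart where their ranges did not overlap. How many of all tested genes had groups apart was not counted, so this describes a member and adds no support to a change.

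**Figure D1:**
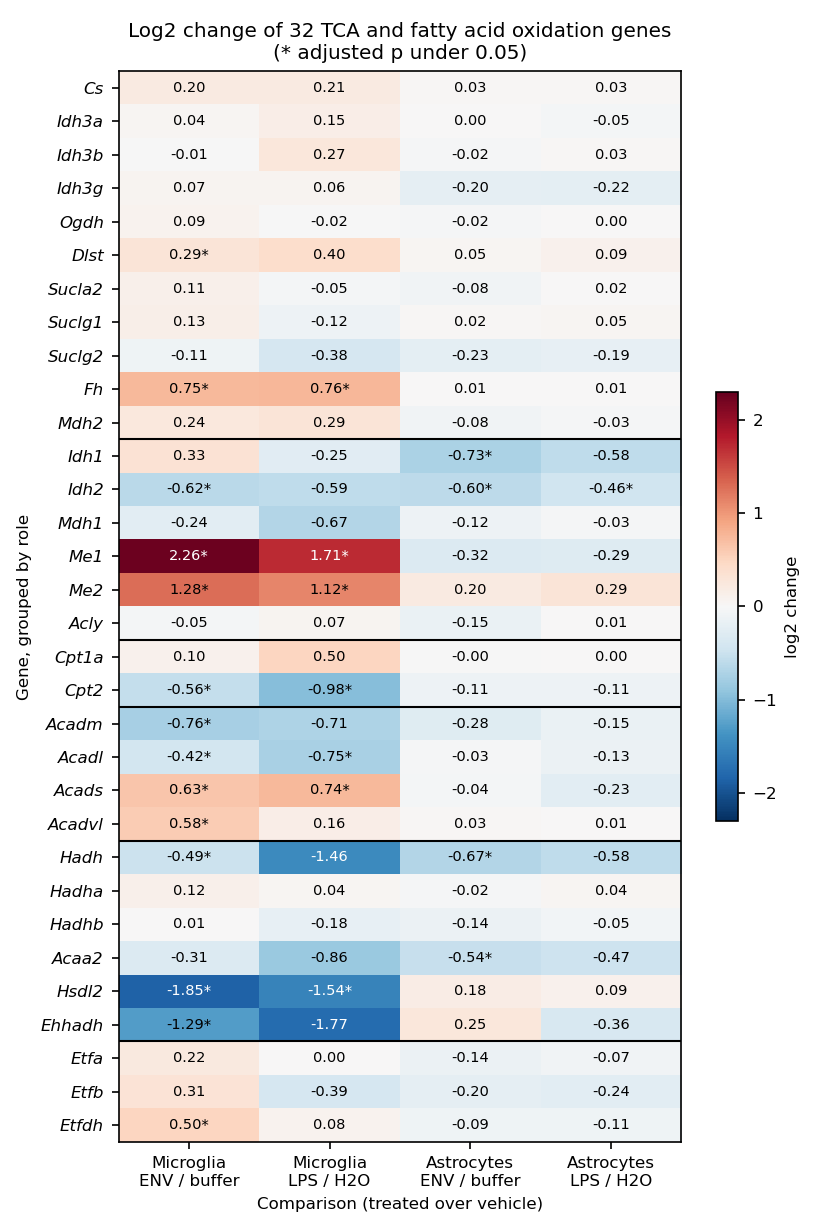
Log2 change of each of the 32 genes (rows, grouped by role) in the 4 comparisons of treated over vehicle cells (columns), with colour from blue (lower) to red (higher) and an asterisk where the adjusted p was under 0.05. Me1 and Hsdl2 carry the strongest colours of the ENV microglia column, at 2.26 and -1.85, while the astrocyte columns hold values between -0.73 and 0.29.

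Most genes of the mitochondrial cycle itself were not called with ENV. Of its 11 genes, 2 rose and 9 were not called. For falls, 0 were called by edgeR or DESeq2, and 0 had an unadjusted p under 0.05. Cs, citrate synthase, which opens the cycle, had 235, 266 and 242 CPM in ENV microglia and 208, 211 and 226 CPM in buffer microglia. Those groups did not overlap, but the difference was not called (log2 change 0.20 ± 0.11, SE; adjusted p = 0.183). Ogdh, the first subunit of the 2-oxoglutarate dehydrogenase complex, overlapped between groups, at 253, 261 and 229.7 CPM with ENV and 256, 241 and 201 CPM with buffer (0.09 ± 0.13, adjusted p = 0.626). The subunits of NAD-linked isocitrate dehydrogenase (Idh3a, Idh3b and Idh3g) and of succinyl-CoA ligase (Sucla2, Suclg1 and Suclg2) had log2 changes between -0.11 and 0.13.

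Fh, fumarase, which hydrates fumarate to malate, was one of the 2 that rose. It had 351, 346 and 323 CPM in ENV microglia, against 219, 186 and 202 CPM in buffer microglia. Every ENV library lay above every buffer library, and the log2 change was 0.75 ± 0.11 (adjusted p = 0.00324). Dlst, the second subunit of the 2-oxoglutarate dehydrogenase complex, had 163, 162 and 161 CPM with ENV and 132, 132 and 133 CPM with buffer (0.29 ± 0.09, adjusted p = 0.0469). The Dlst groups were tight and apart, but the call was lost with replicate number as a block (adjusted p = 0.0516). Mdh2, the mitochondrial malate dehydrogenase, was apart between groups but not called (0.24 ± 0.12, adjusted p = 0.157).

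The group of NADP-linked and cytosolic genes held the largest rise. Me2 was placed there as a relative of Me1, while the mitochondrial NADP-linked malic enzyme is Me3. Me1, the cytosolic malic enzyme, which makes pyruvate and NADPH from malate, had 78.6, 63.3 and 54.7 CPM in ENV microglia and 11.5, 15.2 and 14.2 CPM in buffer microglia. The lowest ENV library held several times the level of the highest buffer library, and the log2 change was 2.26 ± 0.18 (adjusted p = 0.000351). Me2, its mitochondrial relative, had 137, 121 and 118 CPM with ENV, against 52.1, 46.9 and 55.9 CPM with buffer (1.28 ± 0.12, adjusted p = 0.000557). Idh2, the mitochondrial NADP-linked isocitrate dehydrogenase, had 128, 86.3 and 102 CPM with ENV and 169.6, 148 and 169 CPM with buffer. It fell, with no overlap (-0.62 ± 0.16, adjusted p = 0.0273). Idh1, its cytosolic counterpart, had 149, 132 and 109 CPM with ENV and 109, 99.9 and 102 CPM with buffer. The lowest ENV library lay just under the highest buffer library, and Idh1 was not called (0.33 ± 0.14, adjusted p = 0.115). Acly, ATP citrate lyase, overlapped between the groups, at 112, 116 and 118 CPM with ENV and 116, 129 and 113 CPM with buffer (-0.05 ± 0.10, adjusted p = 0.740). Mdh1, the cytosolic malate dehydrogenase, was apart and lower with ENV but not called (-0.24 ± 0.13, adjusted p = 0.197). The count ratio of Me1 to Mdh1 within a library, which no scaling touches, was 0.300 to 0.495 with ENV and 0.0600 to 0.0770 with buffer, a separation that follows from those of the single genes. This ratio and the others given here were chosen after the values were seen, and they are not ratios of molecules because counts were not divided by length.

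**Figure D2:**
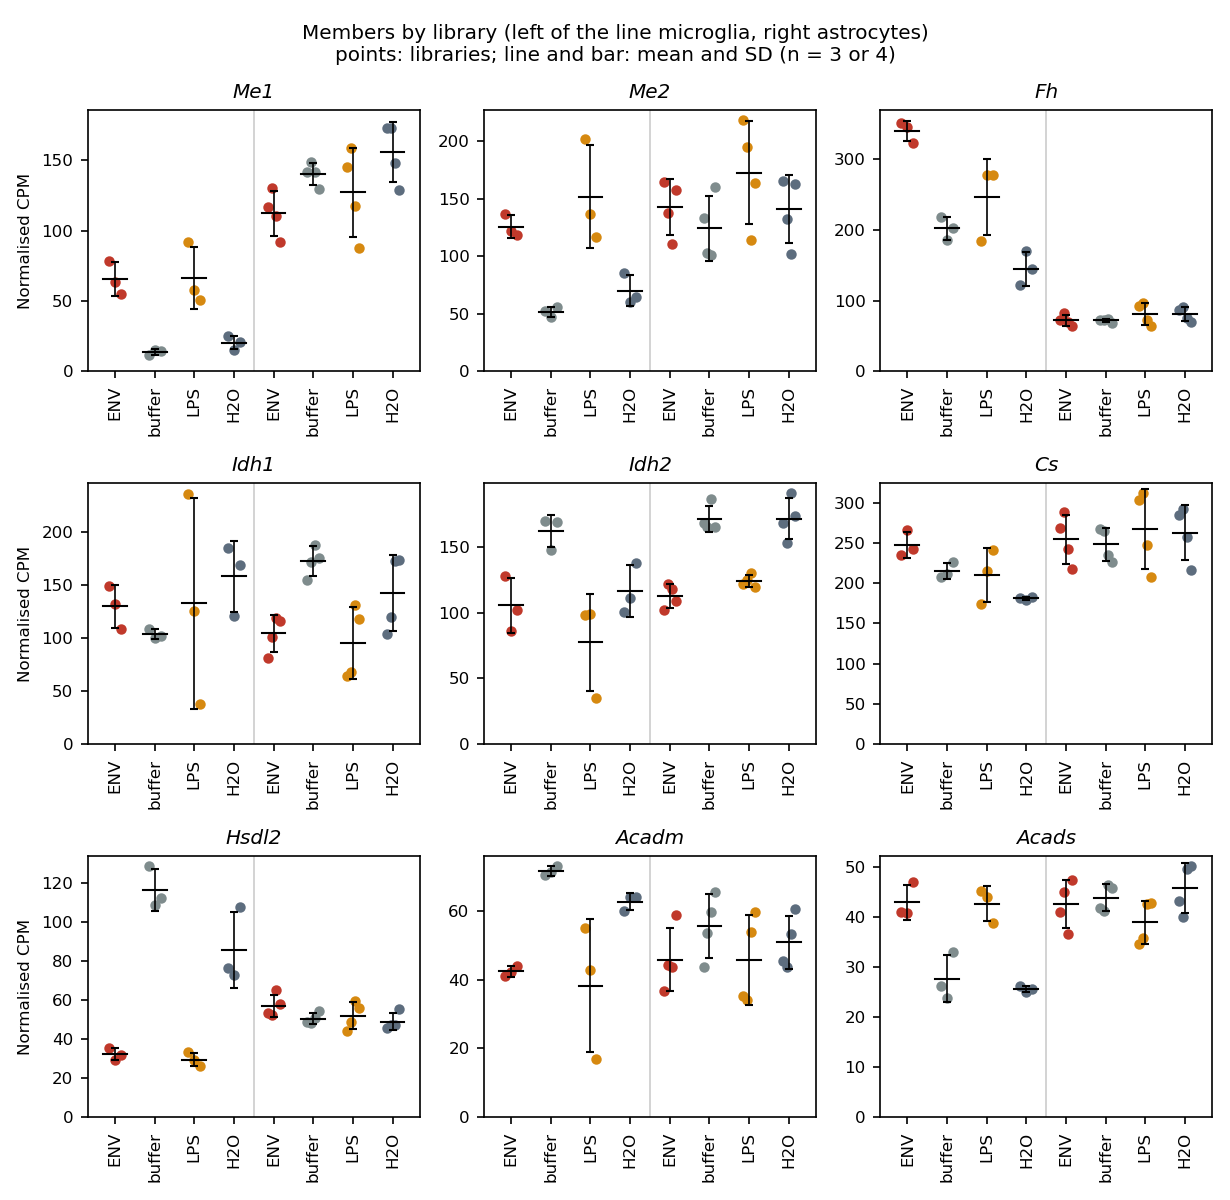
Normalised CPM (vertical axis, linear from 0) of 9 members in each library, by group, with microglia left of the grey line and astrocytes right of it. Points are libraries, and the line with its bar is the mean with the SD (n = 3 in microglia, 4 in astrocytes); Me1, Me2, Fh and Acads sit higher, and Hsdl2 lower, in stimulated than in vehicle microglia, and 1 low LPS library spreads the microglial values of Idh1, Idh2 and Acadm.

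Of the genes for entry of fatty acids into mitochondria, 1 of 2 was called. Cpt1a, carnitine palmitoyltransferase 1A of the outer membrane, the rate-controlling step, had 63.01, 68.6 and 70.4 CPM with ENV and 65.1, 67.1 and 56.5 CPM with buffer (0.10 ± 0.11, adjusted p = 0.541). Cpt2, its partner on the inner membrane, had 7.46, 8.90 and 8.50 CPM with ENV and 13.4, 10.6 and 12.6 CPM with buffer (-0.56 ± 0.16, adjusted p = 0.0397). The Cpt1a groups overlapped, and the Cpt2 groups did not.

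All 4 acyl-CoA dehydrogenases, which start each round of oxidation on chains of different length, were called with ENV, in both directions. Only the Acadm call held in all 6 fits without 1 library, and those of Acads, Acadvl and Acadl were lost in most of them. Acads, for short chains, had 41.01, 40.8 and 46.95 CPM in ENV microglia and 26.2, 23.9 and 32.9 CPM in buffer microglia (0.63 ± 0.15, adjusted p = 0.0193). Acadvl, for very long chains, had 50.3, 49.5 and 51.1 CPM with ENV and 33.01, 28.7 and 39.1 CPM with buffer (0.58 ± 0.13, adjusted p = 0.0178). Both rose with no overlap. Acadm, for medium chains, had 41.01, 42.2 and 44.04 CPM with ENV and 70.5, 71.3 and 73.2 CPM with buffer (-0.76 ± 0.10, adjusted p = 0.00173). Acadl, for long chains, had 66.5, 75.6 and 70.6 CPM with ENV and 95.1, 91.5 and 98.8 CPM with buffer (-0.42 ± 0.10, adjusted p = 0.0201). These fell, again with no overlap. Within a library, the count ratio of Acads to Acadm was 0.966 to 1.07 with ENV, against 0.335 to 0.450 with buffer, and that of Acadvl to Acadm was 1.16 to 1.23 with ENV, against 0.403 to 0.535 with buffer. Both separations follow from the single genes, which were apart in opposite directions, and add no further support. In astrocytes the Acads to Acadm ratio was 0.809 to 1.12 with ENV and 0.699 to 0.959 with buffer. The Acadvl to Acadm ratio was 2.32 to 2.93 with ENV and 2.10 to 2.47 with buffer. Both ratios overlapped between groups, but each was higher with ENV in every same-numbered pair of astrocyte libraries. The plot of dehydrogenase ratios gives each library.

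**Figure D3:**
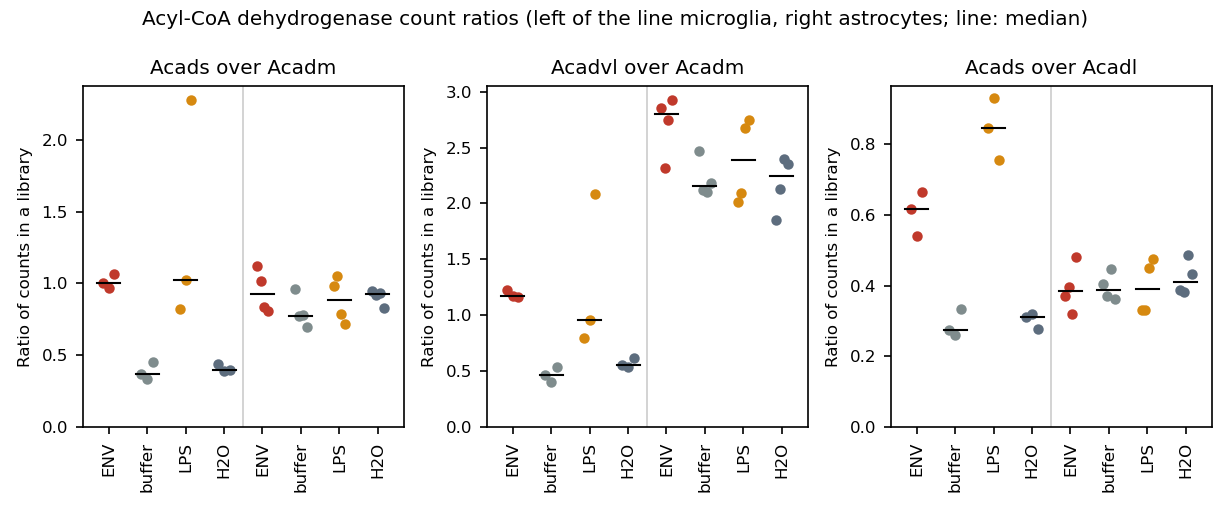
Ratio of counts of 2 acyl-CoA dehydrogenase genes within each library (vertical axis, linear from 0) by group, with microglia left of the grey line and astrocytes right of it. Points are libraries and lines are medians. In microglia all 3 ratios are higher in every ENV or LPS library than in any vehicle library of the same set. In astrocytes treated and vehicle libraries overlap in all 3. With ENV, the astrocyte ratios of Acads to Acadm and of Acadvl to Acadm are still higher in every same-numbered pair.

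Of the 6 genes for the later steps, 3 fell and 3 were not called with ENV. For rises, 0 of the 6 were called by edgeR or DESeq2, and 0 had an unadjusted p under 0.05. Hsdl2, a hydroxysteroid dehydrogenase-like protein of peroxisomes, had 35.5, 29.4 and 31.8 CPM in ENV microglia, against 128, 108 and 112 CPM in buffer microglia. That was the largest fall among the 32 members (-1.85 ± 0.13, adjusted p = 0.000230). Ehhadh, the bifunctional enzyme of peroxisomal oxidation, was scarce, with 17, 20 and 17 counts in the ENV libraries and 62, 50 and 32 counts in the buffer libraries. In CPM these were 0.689, 0.682 and 0.590 with ENV and 2.21, 1.57 and 1.03 with buffer (-1.29 ± 0.36, adjusted p = 0.0339). Hadh, the 3-hydroxyacyl-CoA dehydrogenase for short chains, had 28.2, 28.5 and 29.9 CPM with ENV and 37.7, 40.1 and 43.6 CPM with buffer (-0.49 ± 0.11, adjusted p = 0.0143). The groups of all 3 genes were apart. Acaa2, the thiolase that ends the round, was apart and lower with ENV but not called (-0.31 ± 0.11, adjusted p = 0.0801). Hadha overlapped between groups, at 186, 192 and 193 CPM with ENV and 174, 162 and 190.1 CPM with buffer (0.12 ± 0.11, adjusted p = 0.415), and Hadhb was at 0.01 ± 0.10.

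The electron transfer flavoprotein collects the electrons of the dehydrogenases and passes them to its oxidoreductase. Etfdh, the oxidoreductase, had 62.4, 69.3 and 79.5 CPM in ENV microglia and 46.3, 48.3 and 54.9 CPM in buffer microglia (0.50 ± 0.13, adjusted p = 0.0282). Etfa, the alpha subunit, had 65.2, 62.3 and 72.5 CPM with ENV and 50.7, 52.6 and 67.98 CPM with buffer (0.22 ± 0.14, adjusted p = 0.279). The Etfdh groups were apart and the Etfa groups overlapped. Etfb, the beta subunit, was not called (0.31 ± 0.19, adjusted p = 0.241).

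Fh, Me1, Me2, Acadm and Hsdl2 were called in all 6 fits that left out 1 ENV or buffer library of microglia. The other 9 calls were each lost in at least 2 of those fits, at adjusted p up to 0.134, without buffer replicate 1 or 2 or an ENV library. Without buffer replicate 3, 11 members were higher, since Idh3g, Mdh2, Etfa and Etfb were called too. That fit called 5282 of 12982 genes, where the fit with all libraries called 3972 of 12844. With library totals alone in place of TMM, which put the median of all genes at -0.23, 4 members were higher and 9 lower (35.4% of all genes called), and Dlst, Acads and Etfdh were not called. Marker sums of other cells differed too. Oligodendrocyte lineage markers summed to 93.5 to 181 CPM in ENV microglia, with Mog at 0, and 295 to 320.4 CPM in buffer microglia, with 4 of 9 tested called lower (7 with replicate number as a block). The block called 5036 of all 12844 genes tested. Endothelial markers summed to 91.5 to 191 CPM with ENV and 37.5 to 49.99 CPM with buffer, with 2 of 4 tested called higher and no overlap. Astrocyte markers summed to 129.9 to 248 CPM with ENV and 226 to 282 CPM with buffer, with 1 of 9 tested called lower (2 lower and 1 higher with the block). The part of these markers in the results was not tested. In bulk RNA, fewer cells of a type and less RNA per cell cannot be told apart.

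In microglia treated with LPS, the malic enzymes Me1 and Me2, fumarase and Acads rose, and Hsdl2, Cpt2 and Acadl fell. The calls of fumarase and Me2 were lost in most fits without 1 library, and the other 5 held in all 6. Of the 32 genes, 4 rose (Fh, Me1, Me2 and Acads), 3 fell (Cpt2, Acadl and Hsdl2) and 25 were not called. That is 21.9% of the members, where 29.8% of all 12229 genes tested were called (16% higher, 13.8% lower). The median log2 change was -0.01 for the members and -0.02 for all genes. For falls among the 17 TCA genes, 0 were called by edgeR or DESeq2, and 2 (Suclg2 and Mdh1) had an unadjusted p under 0.05. With library totals alone, which put the median of all genes at -0.33, 3 members were higher and 8 lower (35.6% of all genes called), and Fh was not called. A joint fit of the 4 microglial groups called 9 members with ENV (23.1% of all genes) and 13 with LPS (37% of all genes), so the order of the 2 counts rested on the fit.

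Fh had 184, 277 and 278 CPM in LPS microglia and 122, 169.6 and 145 CPM in H2O microglia (0.76 ± 0.22, adjusted p = 0.0415). Me1 had 91.5, 57.6 and 50.3 CPM with LPS and 25.04, 15.4 and 20.6 CPM with H2O (1.71 ± 0.29, adjusted p = 0.00964). Me2 had 202, 137 and 116 CPM with LPS and 85.4, 60.02 and 64.4 CPM with H2O (1.12 ± 0.25, adjusted p = 0.0214). In each of these 3 genes the lowest LPS library lay above the highest H2O library. The Fh call was lost when any H2O replicate or LPS replicate 2 or 3 was left out (adjusted p up to 0.139), and that of Me2 without H2O replicate 1, 2 or 3 or LPS replicate 2 (up to 0.0870). The ratio of Me1 to Mdh1 counts was 0.540 to 0.984 with LPS and 0.111 to 0.207 with H2O.

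On the oxidation side, Acads had 45.2, 43.97 and 38.7 CPM in LPS microglia and 26.2, 25.03 and 25.5 CPM in H2O microglia (0.74 ± 0.12, adjusted p = 0.00745). Acadl had 53.5, 47.2 and 51.3 CPM with LPS and 84.3, 78.5 and 92.3 CPM with H2O (-0.75 ± 0.12, adjusted p = 0.00761). Within a library, the ratio of Acads to Acadl was 0.755 to 0.931 with LPS, against 0.277 to 0.319 with H2O. Since the 2 genes were apart in opposite directions, this separation follows from them and adds no further support. Cpt2 had 6.82, 5.88 and 5.41 CPM with LPS and 12.1, 10.9 and 12.8 CPM with H2O (-0.98 ± 0.17, adjusted p = 0.00902). Hsdl2 had 33.1, 29.04 and 26.05 CPM with LPS and 76.2, 72.7 and 108 CPM with H2O (-1.54 ± 0.19, adjusted p = 0.00426). The groups of these 4 genes were apart, and like Me1 they were called in all 6 fits without 1 library.

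For a further group of members the third LPS library lay far from its partners. Hadh had 19.9, 16.8 and 5.12 CPM in LPS microglia and 39.1, 30.9 and 45.1 CPM in H2O microglia, and was not called (-1.46 ± 0.48, adjusted p = 0.0656). Acaa2 had 39.7, 34.6 and 13.1 CPM with LPS and 55.1, 49.8 and 53.8 CPM with H2O (-0.86 ± 0.39, adjusted p = 0.141). Acadm had 54.9, 42.9 and 16.997 CPM with LPS and 59.97, 64.2 and 63.998 CPM with H2O (-0.71 ± 0.40, adjusted p = 0.218). In these 3 genes all LPS libraries lay below all H2O libraries, with LPS replicate 3 lowest. The share of all genes with groups so apart was not counted. Idh1 had 236, 125 and 37.4 CPM with LPS and 185, 120.5 and 169 CPM with H2O (-0.25 ± 0.60, adjusted p = 0.775). Idh2 had 98.6, 98.9 and 34.9 CPM with LPS and 100.4, 111 and 138 CPM with H2O (-0.59 ± 0.40, adjusted p = 0.302). Cpt1a had 85.1, 72.1 and 213 CPM with LPS and 93.4, 72.6 and 95.6 CPM with H2O (0.50 ± 0.43, adjusted p = 0.406). LPS replicate 3 was the lowest library of Idh1 and Idh2 and the highest of Cpt1a. Without replicates 3 of both groups, Hadh (-0.93, adjusted p = 0.0143) and Acaa2 (-0.50, adjusted p = 0.0359) were called lower, Fh was not called (0.66, adjusted p = 0.109), Idh1 stood at 0.24 and Cpt1a at -0.08. Ehhadh had 20, 10 and 3 counts with LPS and 52, 34 and 65 counts with H2O, and was not called by edgeR (-1.77 ± 0.69, adjusted p = 0.0970). Of the 6 genes for the later steps, edgeR called 1 lower with LPS and DESeq2 2, where DESeq2 called 4786 of 13565 genes. The plot of same-numbered libraries shows these differences.

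The other members were not called. Cs had 174, 216 and 241 CPM in LPS microglia and 182, 179 and 183 CPM in H2O microglia (0.21 ± 0.15, adjusted p = 0.326). Ogdh had 205, 250.4 and 222 CPM with LPS and 250.3, 217 and 218 CPM with H2O (-0.02 ± 0.14, adjusted p = 0.933). Acly had 93.2, 101 and 96.1 CPM with LPS and 84.01, 87.1 and 105 CPM with H2O (0.07 ± 0.13, adjusted p = 0.701). The groups of all 3 genes overlapped. Hadha had 158, 164 and 153 CPM with LPS and 155, 149.7 and 156 CPM with H2O (0.04 ± 0.11, adjusted p = 0.793), and Etfa had 39.01, 46.1 and 41.97 CPM with LPS and 42.98, 38.03 and 45.9 CPM with H2O (0.00 ± 0.13, adjusted p = 0.993). These overlapped too, and the remaining members lay between -0.67 (Mdh1) and 0.40 (Dlst).

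Marker sums of other cells also differed between LPS and H2O microglia. Endothelial markers summed to 101 to 232 CPM with LPS and 43.4 to 84.4 CPM with H2O, with Kdr at 0 in both groups and 1 of 4 tested called higher (2 with the block). The block called 3707 of all 12229 genes tested. Astrocyte markers summed to 26.3 to 52.5 CPM with LPS and 57.6 to 247 CPM with H2O, with 0 of 5 tested called (0 higher and 1 lower at an unadjusted p under 0.05 by edgeR, 0 and 1 called by DESeq2). Oligodendrocyte lineage markers summed to 5.82 to 39.1 CPM with LPS, with Mog at 0, and 15.4 to 156 CPM with H2O, with Mag at 0, and 1 of 7 tested was called lower (4 with the block). Fibroblast and mural markers summed to 5.26 to 6.88 CPM with LPS and 6.19 to 11.5 CPM with H2O, with 2 of 6 called lower. The endothelial groups did not overlap, nor did the astrocyte groups. Their part in the members' changes was not tested.

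In microglia, the difference between the ENV and the LPS response (ENV minus LPS) was called for 0 of 32 members, and for 0 of all 13270 tested genes (0% called). By edgeR, 4 members (Acadl, Acadvl, Etfb and Etfdh) had a positive ENV minus LPS difference at an unadjusted p under 0.05, and 0 members were called by DESeq2. Me1 differed by 0.59 ± 0.35 (adjusted p = 0.747), Fh by 0.01 ± 0.25 and Hsdl2 by -0.28 ± 0.21. In astrocytes the same difference was called for 0 of 32 members and 0 of 15496 genes (0% called), with 0 members at an unadjusted p under 0.05 by edgeR and 0 called by DESeq2. Doses and vehicles differed between the stimuli.

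In astrocytes treated with ENV, the members that were called all fell: Idh1, Idh2, Hadh and Acaa2. Of the 32 genes, 4 fell and 28 were not called, which is 12.5% of the members where 17.9% of all 14941 genes tested were called (9.52% higher, 8.35% lower). For rises, 0 members were called by edgeR or DESeq2, and 0 had an unadjusted p under 0.05. The median log2 change was -0.08 for the members and 0.02 for all genes. Idh2 and Hadh had also been called lower in ENV microglia.

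Both NADP-linked isocitrate dehydrogenases fell. Idh1 had 81.6, 101, 119 and 116 CPM in ENV astrocytes and 155, 171, 188 and 176 CPM in buffer astrocytes (-0.73 ± 0.13, adjusted p = 0.00751). Idh2 had 102, 122, 118 and 109 CPM with ENV and 168, 165, 186 and 165 CPM with buffer (-0.60 ± 0.08, adjusted p = 0.00279). Every ENV library lay below every buffer library for both, and both were called in all 8 fits without 1 library. Hadh had 27.3, 40.8, 41.8 and 38.5 CPM with ENV and 51.1, 50.8, 58.6 and 75.4 CPM with buffer (-0.67 ± 0.17, adjusted p = 0.0328). Acaa2 had 32.4, 37.5, 36.8 and 43.8 CPM with ENV and 49.1, 48.1, 57.2 and 63.6 CPM with buffer (-0.54 ± 0.13, adjusted p = 0.0222). These groups were also apart. The Hadh call was lost without ENV replicate 1 or 4 or buffer replicate 3 or 4 (adjusted p up to 0.0726), and the Acaa2 call without ENV replicate 1 or 3 or buffer replicate 3 (up to 0.0601). Within replicates 1 and 2 alone, Idh1 was at -0.87 (adjusted p = 0.0578), Idh2 at -0.60 (adjusted p = 0.0694), Hadh at -0.61 (adjusted p = 0.160) and Acaa2 at -0.51 (adjusted p = 0.0788), and none of the 4 was called. Within replicates 3 and 4 alone, Idh1 was called (-0.63, adjusted p = 0.0498), while Idh2 was at -0.63 (adjusted p = 0.0613), Hadh at -0.74 (adjusted p = 0.0772) and Acaa2 at -0.58 (adjusted p = 0.100).

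With replicate number as a block, Me1 (-0.33, adjusted p = 0.0230) and Acadm (-0.28, adjusted p = 0.0365) were called lower in ENV astrocytes too, which made 6 of 32 members, where 29.1% of all genes were called. Without the block Acadm was at -0.28 ± 0.17 (adjusted p = 0.298), with 36.6, 44.2, 43.8 and 58.7 CPM in ENV astrocytes and 43.6, 53.5, 59.8 and 65.6 CPM in buffer astrocytes. The groups overlapped, but Acadm was lower with ENV in 4 of 4 same-numbered pairs. Cpt1a had 275, 244, 183 and 176 CPM with ENV and 215, 215, 211 and 236 CPM with buffer, higher in 2 pairs and lower in 2 (-0.00 ± 0.15, adjusted p = 0.995). Cs ranged over 217 to 288 CPM with ENV and 226 to 267 CPM with buffer (0.03 ± 0.11), and Ogdh over 179 to 215 CPM with ENV and 175 to 223 CPM with buffer (-0.02 ± 0.10). Acly ranged over 225 to 309.7 CPM with ENV and 252 to 346 CPM with buffer (-0.15 ± 0.14). These groups overlapped and were not called. Hadha ranged over 227 to 267 CPM with ENV and 239.6 to 259 CPM with buffer (-0.02 ± 0.08), and Etfa over 82.7 to 105 CPM with ENV and 98.3 to 111 CPM with buffer (-0.14 ± 0.09). Fh, which rose in microglia, ranged over 63.9 to 82.5 CPM with ENV and 68.2 to 74.3 CPM with buffer (0.01 ± 0.09). None of these 3 was called. All 28 uncalled members lay between -0.32 (Me1) and 0.25 (Ehhadh). The 32 genes together summed to 3658 to 3880 CPM in ENV astrocytes and 3977 to 4220 CPM in buffer astrocytes.

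Marker sums differed in these cultures as well. The 9 fibroblast and mural markers summed to 1005 to 1934 CPM in ENV astrocytes and 1466 to 6930 CPM in buffer astrocytes, with 0 of 8 tested called (0 higher and 4 lower at an unadjusted p under 0.05 by edgeR, 0 and 3 called by DESeq2). With the block, 4 of the 8 were called lower. Microglial markers summed to 117.1 to 421.8 CPM with ENV and 201.7 to 820.4 CPM with buffer, with 2 of 10 called lower (6 with the block). Neuronal markers summed to 272.0 to 463.2 CPM with ENV and 585.8 to 808.3 CPM with buffer, with 2 of 5 tested called lower and 1 higher. Astrocyte markers summed to 4533 to 8296 CPM with ENV and 8758 to 10974 CPM with buffer, with 4 of 10 called lower and 1 higher (7 and 3 with the block). No marker of these 4 lists was at 0 throughout either group. Their part in the members' changes was not tested.

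In LPS-treated astrocytes 1 member was called, Idh2. It had 122, 125, 130.4 and 119.8 CPM with LPS and 169, 153, 191 and 174 CPM with H2O, with no overlap (-0.46 ± 0.09, adjusted p = 0.0292). That is 3.12% of the members, where 5.34% of all 14710 genes tested were called (2.64% higher, 2.69% lower). For rises, 0 members were called by edgeR or DESeq2, and 0 had an unadjusted p under 0.05. The Idh2 call was lost in 7 of 8 fits without 1 library, all but the one without H2O replicate 2 (adjusted p up to 0.0966). The members' median log2 change was -0.05, against 0.03 for all genes.

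Pairing by replicate number brought the calls to 4, all lower: Idh2, Idh1 (-0.62, adjusted p = 0.00873), Hadh (-0.54, adjusted p = 0.0442) and Acaa2 (-0.45, adjusted p = 0.0295). Each was lower with LPS in 4 of 4 pairs. These are 4 of 32 members, where the same fit called 17.7% of all genes. Idh1 had 63.9, 68.4, 131 and 118 CPM with LPS and 104, 119.7, 173 and 174 CPM with H2O. Replicates 1 and 2 lay below replicates 3 and 4 in both groups, so the groups overlapped (-0.58 ± 0.29, adjusted p = 0.294 without the block). Hadh had 31.5, 37.1, 43.1 and 42.1 CPM with LPS and 43.4, 41.3, 64.3 and 81.6 CPM with H2O, and Acaa2 had 35.2, 32.8, 36.02 and 42.6 CPM with LPS and 44.01, 38.9, 55.6 and 64.8 CPM with H2O. Within replicates 1 and 2 alone, Idh1 (-0.76, adjusted p = 0.00333), Idh2 (-0.38, adjusted p = 0.0215), Acadm (-0.37, adjusted p = 0.0323) and Acadvl (-0.33, adjusted p = 0.0387) were called lower. Within replicates 3 and 4 alone, Idh1 was at -0.50 (adjusted p = 0.0722), Idh2 at -0.56 (adjusted p = 0.0601), Acadm at -0.02 (adjusted p = 0.930) and Acadvl at 0.17 (adjusted p = 0.483). Acadvl thus had opposite signs in the 2 pairs of replicates, and Acadm was near 0 in replicates 3 and 4.

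Cpt1a had 292, 297, 172 and 164 CPM in LPS astrocytes, against 262, 225, 206 and 231 CPM in H2O astrocytes. It was higher in pairs 1 and 2 and lower in pairs 3 and 4 (0.00 ± 0.22, adjusted p = 0.998). Acadm had 35.2, 34.01, 53.9 and 59.7 CPM with LPS and 45.6, 43.7, 53.4 and 60.7 CPM with H2O (-0.15 ± 0.21, adjusted p = 0.754). Cs (0.03 ± 0.16), Ogdh (0.00 ± 0.12), Acly (0.01 ± 0.22), Hadha (0.04 ± 0.13) and Etfa (-0.07 ± 0.08) overlapped between groups and were not called. All 31 uncalled members lay between -0.58 (Idh1 and Hadh) and 0.29 (Me2). In this set the fibroblast and mural markers summed to 982.0 to 1905 CPM with LPS and 1513 to 5574 CPM with H2O, with 0 of 7 tested called (0 higher and 2 lower at an unadjusted p under 0.05 by edgeR, 0 and 2 called by DESeq2, 2 lower with the block). The microglial markers summed to 107.5 to 409.1 CPM with LPS and 284.8 to 773.2 CPM with H2O, with 0 of 10 called (0 higher and 4 lower at an unadjusted p under 0.05 by edgeR, 0 and 4 called by DESeq2, 6 lower with the block). Astrocyte markers summed to 2492 to 8450.1 CPM with LPS and 5543 to 10995 CPM with H2O, with 0 of 9 tested called (0 higher and 5 lower at an unadjusted p under 0.05 by edgeR, 0 and 4 called by DESeq2, 5 lower with the block). Neuronal markers summed to 284 to 471 CPM with LPS and 451 to 817 CPM with H2O, with 1 of 5 tested called higher and 2 lower with the block. No marker of these 4 lists was at 0 throughout either group, and their part was not tested.

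The responses of the cell types were compared directly as interaction terms over shared symbols. For ENV, 5 members had a higher and 1 a lower log2 change in microglia than in astrocytes, 18.8% of the members where 14.9% of 13378 genes were called (6.87% higher and 8.07% lower). Me1 differed by 2.58 ± 0.21 (adjusted p = 1.80e-05) and Hsdl2 by -2.03 ± 0.15 (adjusted p = 1.29e-05). Me2 differed by 1.08 ± 0.24 (adjusted p = 0.00997) and Idh1 by 1.04 ± 0.20 (adjusted p = 0.00409). Hsdl2, the gene that fell most in ENV microglia, had 53.1, 52.2, 64.8 and 57.7 CPM in ENV astrocytes and 48.4, 48.03, 50.7 and 54.5 CPM in buffer astrocytes (0.18 ± 0.09). Me1 had 116, 130.1, 111 and 91.8 CPM in ENV astrocytes, against 142, 149, 142 and 129 CPM in buffer astrocytes (-0.32 ± 0.11). Me2 had 165, 137, 111 and 158 CPM in ENV astrocytes and 133, 103, 101 and 160.0 CPM in buffer astrocytes (0.20 ± 0.18). With all libraries and no block, edgeR called none of these 3 in astrocytes, but Me1 was called lower without ENV replicate 2 (-0.40, adjusted p = 0.0366) and by DESeq2 (-0.34, adjusted p = 0.0456). The other members called in the difference were Fh (0.74 ± 0.13, adjusted p = 0.00318) and Acads (0.67 ± 0.18, adjusted p = 0.0256). The Acads call was lost without microglial buffer replicate 1 or 2, microglial ENV replicate 3 or astrocyte buffer replicate 3 (adjusted p up to 0.0683), and with library totals alone (adjusted p = 0.0854). With the block, which called 24.8% of all genes, 7 of 32 members were higher and 3 lower, with Acadvl (0.58, adjusted p = 0.0246), Etfdh (0.59, adjusted p = 0.0137), Acadm (-0.48, adjusted p = 0.0176) and Ehhadh (-1.45, adjusted p = 0.0150) added.

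For LPS, 2 members had a higher and 3 a lower log2 change in microglia than in astrocytes, 15.6% of the members where 12.5% of 13284 genes were called (5.32% higher and 7.14% lower). Me1 differed by 1.97 ± 0.35 (adjusted p = 0.00413) and Acads by 0.95 ± 0.16 (adjusted p = 0.00347). Hsdl2 differed by -1.66 ± 0.22 (adjusted p = 0.000826), Cpt2 by -0.90 ± 0.18 (adjusted p = 0.00689) and Acadl by -0.64 ± 0.15 (adjusted p = 0.0158). All 5 were called in each of 14 fits without 1 library. Cpt2 in astrocytes ranged over 35.01 to 48.6 CPM with LPS and 43.8 to 47.4 CPM with H2O, and Acadl over 89.9 to 108 CPM with LPS and 102 to 116 CPM with H2O, and both overlapped. With the block, Fh (0.73, adjusted p = 0.0128) and Me2 (0.79, adjusted p = 0.0154) were higher as well, which made 4 of 32 higher and 3 lower, where that fit called 22.8% of all genes. The tables of the cell types listed different symbols, and cell type, library set and symbol table cannot be told apart in these differences.

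**Figure D4:**
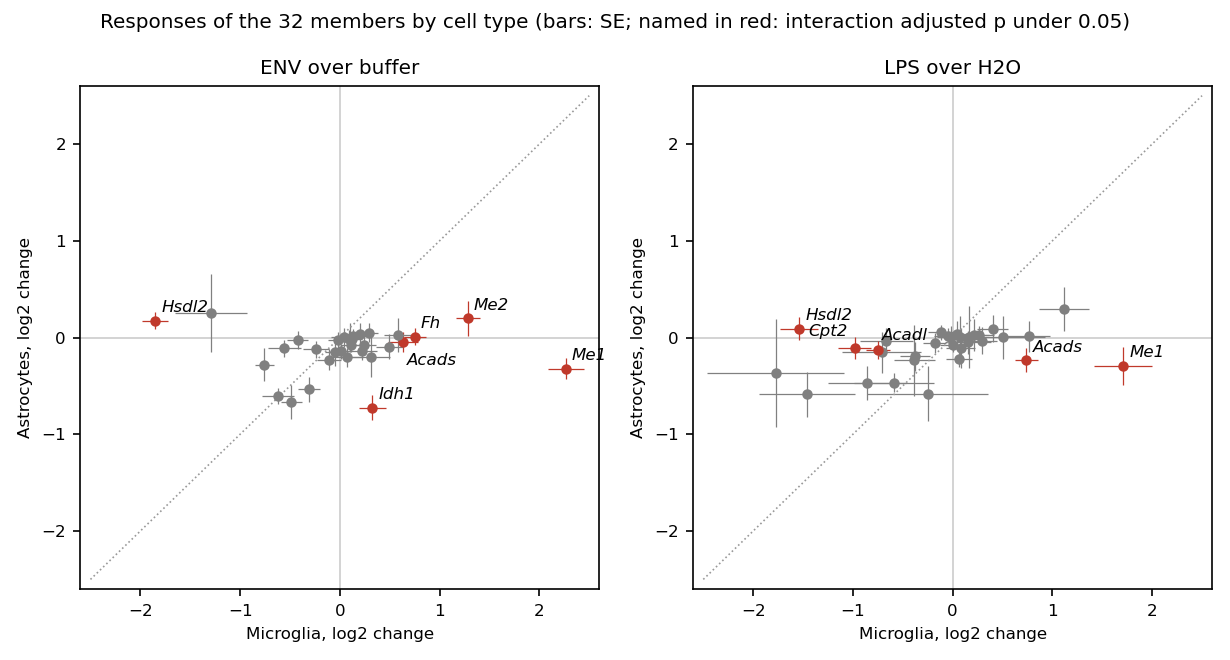
Log2 change of each of the 32 genes in microglia (horizontal axis) and in astrocytes (vertical axis), for ENV over buffer on the left and LPS over H2O on the right, with SE bars and the line of equal response dotted. Red points with names are the 6 (ENV) and 5 (LPS) members whose response differed between cell types; with ENV, Me1 lies at 2.26 in microglia and -0.32 in astrocytes, and Hsdl2 at -1.85 in microglia and 0.18 in astrocytes.

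Vehicle-treated microglia and astrocytes differed in most members, as in most genes. Cell type, library set and symbol table cannot be told apart in this contrast either. Over the 6 vehicle libraries of microglia and the 8 of astrocytes, 12 members were higher in microglia, 11 lower and 9 not called, 71.9% of the members where 79.6% of 13308 genes were called (37.7% higher and 41.9% lower). The balance of directions rested on the scaling, since with the size factors of DESeq2 8 were higher and 14 lower (79.4% of all genes called), and with library totals alone 5 were higher and 22 lower (80.6%), and the median of all genes was at -0.50 in place of -0.07. Each called member described here had the same direction with library totals. The vehicle CPM below were scaled over these 14 libraries together, so they are not on the scale of the levels given above. Means and SDs pool the buffer and H2O libraries, which could differ. On this scale microglial Idh1, for example, was at 134 to 142 CPM with buffer and 183 to 278 CPM with H2O.

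Among them, Etfb averaged 41.8 ± 7.23 CPM in microglia (SD, n = 6) and 5.78 ± 1.58 CPM in astrocytes (n = 8), a log2 difference of 2.86 ± 0.20 (adjusted p = 3.86e-08). Its partner subunit Etfa was lower in microglia, at 69.96 ± 11.5 CPM, against 99.3 ± 4.45 CPM in astrocytes (-0.51 ± 0.08). Fh averaged 244 ± 37.9 CPM in microglia and 72.2 ± 7.00 CPM in astrocytes (1.75 ± 0.09), and Hsdl2 142 ± 24.2 CPM in microglia and 46.99 ± 3.68 CPM in astrocytes (1.59 ± 0.09). Under ENV, Fh rose and Hsdl2 fell in microglia. Acadm averaged 95.01 ± 3.27 CPM in microglia and 50.5 ± 8.18 CPM in astrocytes (0.92 ± 0.10), and Ogdh 327 ± 33.4 CPM in microglia and 197 ± 20.3 CPM in astrocytes (0.73 ± 0.09).

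On the other side, Me1 averaged 24.4 ± 8.37 CPM in vehicle microglia and 140.1 ± 14.6 CPM in vehicle astrocytes (-2.57 ± 0.12, adjusted p = 9.55e-10). The members of carnitine entry were both lower in microglia, with Cpt1a at 108 ± 29.03 CPM, against 213 ± 14.9 CPM in astrocytes (-1.02 ± 0.08), and Cpt2 at 17.1 ± 1.73 CPM, against 42.2 ± 2.01 CPM in astrocytes (-1.31 ± 0.07). Acadvl averaged 49.5 ± 7.59 CPM in microglia and 111 ± 21.1 CPM in astrocytes (-1.17 ± 0.14). Suclg2, the GTP-forming beta subunit of succinyl-CoA ligase, averaged 83.6 ± 11.8 CPM in microglia and 159 ± 24.9 CPM in astrocytes (-0.93 ± 0.11), and Acly 149 ± 17.1 CPM in microglia and 262 ± 49.005 CPM in astrocytes (-0.82 ± 0.13). The groups of all 6 were apart. Idh1 (0.29 ± 0.13), Hadh (0.01 ± 0.17), Hadha (0.02 ± 0.07), Acads (-0.17 ± 0.09) and Etfdh (0.09 ± 0.10) were among the 9 that were not called, and with library totals Hadh, Hadha and Etfdh were called lower.

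Around these enzymes, other genes of the cycle, pyruvate entry and linked carriers were called in microglia at a share below that of all genes. For the lists that follow, the shares of all genes called were 30.9% in ENV microglia and 29.8% in LPS microglia. In astrocytes they were 17.9% with ENV and 5.34% with LPS. With the block, 5036 of 12844 genes were called in ENV microglia and 3707 of 12229 in LPS microglia. The block called 29.1% of all genes in ENV astrocytes and 17.7% in LPS astrocytes. In ENV microglia 6 of 28 other genes of the cycle, pyruvate entry and linked carriers rose, 2 fell and 20 were not called. Pdk4 (-3.42 ± 0.47, adjusted p = 0.00248), a kinase that shuts off pyruvate dehydrogenase, and the mitochondrial NADP-linked malic enzyme Me3 (-2.97 ± 0.36, adjusted p = 0.00155) fell, and the dicarboxylate carrier Slc25a10 rose (1.46 ± 0.15, adjusted p = 0.000837). In LPS microglia 3 of the 28 rose and 3 fell, led by Pdk4 (-3.02 ± 0.76), Me3 (-2.88 ± 0.60) and Slc25a10 (1.82 ± 0.29). In ENV astrocytes 4 rose and 6 fell, led by Me3 (-0.88 ± 0.19) and the kinases Pdk1 (-0.87 ± 0.11) and Pdk2 (-0.61 ± 0.14). In LPS astrocytes 1 of 28 fell, Pdk2 (-0.74 ± 0.11), and for rises 0 were called by edgeR and 1 by DESeq2, with 5 at an unadjusted p under 0.05. With the block, 4 of the 28 rose and 4 fell in LPS astrocytes.

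Of 26 other genes of fatty acid oxidation and activation, 25 were tested in ENV microglia, where 3 rose and 1 fell. The acyl-CoA synthetases, which activate fatty acids, led, with Acsl4 (1.62 ± 0.18), Acsl5 (0.99 ± 0.10) and Acsl3 (-0.97 ± 0.21). In LPS microglia 4 of 24 tested rose and 2 fell, led by Acsl3 (-2.002 ± 0.19), Acsl4 (1.84 ± 0.29) and the carnitine palmitoyltransferase of neurons, Cpt1c (1.81 ± 0.39). In ENV astrocytes 3 of 25 rose and 4 fell, among them Acsl6 (-1.35 ± 0.30) and Acsl4 (1.24 ± 0.24). In LPS astrocytes 1 of 25 rose, Acsl4 (0.90 ± 0.17), and 1 fell, Acsl6 (-1.02 ± 0.22). With the block, 5 rose and 3 fell in ENV microglia, 4 fell in LPS microglia and 3 fell in LPS astrocytes.

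Among 10 genes of fatty acid synthesis and desaturation, 1 rose and 3 fell in ENV microglia. The acetyl-CoA carboxylases Acacb (-1.69 ± 0.49) and Acaca (0.70 ± 0.15) went in opposite directions, and the desaturase Fads2 fell (-0.997 ± 0.21). In LPS microglia 1 of 9 tested fell, Acacb (-2.77 ± 0.62). In ENV astrocytes 3 of 10 fell, Fads2 (-1.20 ± 0.18), the desaturase Fads1 (-1.02 ± 0.17) and the elongase Elovl6 (-0.69 ± 0.11), and in LPS astrocytes 1 of 10 fell, Fads2 (-0.97 ± 0.15). For rises in those 3 comparisons, 0 were called by edgeR, with or without the block, or by DESeq2, and 0 had an unadjusted p under 0.05. With the block, 2 rose and 5 fell in ENV microglia, 2 fell in LPS microglia and 3 fell in LPS astrocytes.

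Of 11 regulators, 9 were tested in each microglial comparison, and in each 2 rose and 1 fell. Pparg, a nuclear receptor of lipid metabolism, fell in microglia with ENV (-4.97 ± 0.59) and with LPS (-5.10 ± 0.78). Hif1a, the oxygen-regulated factor, rose with ENV (2.03 ± 0.26) and with LPS (2.11 ± 0.24), and so did Esrra, an orphan receptor that drives mitochondrial genes (1.54 ± 0.19 with ENV and 2.13 ± 0.29 with LPS). In ENV astrocytes 2 of 11 rose, Hif1a (1.02 ± 0.17) and Ppard (0.96 ± 0.18), and the coactivator Ppargc1a fell (-1.42 ± 0.34). In LPS astrocytes 1 of 11 rose, Hif1a (0.83 ± 0.11), and for falls 0 were called by edgeR or DESeq2 and 1 had an unadjusted p under 0.05. With the block, 2 regulators fell in ENV microglia and 2 rose in LPS astrocytes. Of 12 genes of mitochondrial import and folding, Timm23 rose (0.63 ± 0.15) and Hspd1 fell (-0.42 ± 0.10) in ENV microglia. In LPS microglia Timm23 (0.78 ± 0.14) and Vdac1 (0.72 ± 0.13) rose. In ENV astrocytes 0 of 12 were called by edgeR and 1 by DESeq2, with 3 at an unadjusted p under 0.05, and in LPS astrocytes 0 were called by edgeR or DESeq2 without the block, with 0 at an unadjusted p under 0.05. With the block, 1 rose in ENV astrocytes, 1 rose in LPS astrocytes and 2 fell in ENV microglia.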

How the data were processed

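RNA of 12 microglial and 16 astrocyte libraries was sequenced after mRNA capture. The authors deposited whole-number read counts per gene symbol, 1 file per library, per the file headers. The submitters' processing notes name HISAT2, StringTie 1.3.3b and the build mRatBN7.2, without the step that each served. Library totals were 23742228 to 42724111, so that 3 counts, taken as the floor, equalled 0.0702 to 0.126 CPM, which covers counting error only.

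Counts were tested with edgeR 4.0.16 (R 4.3.3, limma 3.58.1) using filterByExpr, TMM and robust quasi-likelihood F tests, with Benjamini-Hochberg adjustment over all tested genes. Genes with an adjusted p under 0.05 were called, and the SE is the absolute log2 change over the square root of F. The 4 treated groups were set against their vehicles. Response differences and the vehicle contrast were contrasts of 4 groups, and tables were joined by symbol for contrasts across cell types. Alternatives were DESeq2 1.42.0, its size factors, no filter, a replicate block, leaving out libraries, joint fits, and library totals (added after the data were seen). The test was checked on simulated data.

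Same-numbered libraries deviated together: their residual correlations were 0.260 to 0.637 in all 14 pairs. In the astrocyte LPS set, however, LPS replicate 2 was closest to H2O replicate 1. For the replicate block, the numbers were taken to pair the samples. The main fits held no block, so their calls leave this pairing out, and results with the block are given as an alternative. The members, the gene lists and the tests were chosen with earlier results of these data known. All 32 members were accounted for. Per-library values were given for called members with groups apart (up to 8 per treated comparison), for members called in an interaction (up to 4 each), and for Cs, Idh1, Ogdh, Acly, Cpt1a, Acadm, Hadha and Etfa, and further members were added for context after their values were seen. From the lists of other pathway genes, up to 3 called genes with the largest log2 change were named, except that 1 of them is not reported here. Ratios and members at the vehicle contrast were chosen after their values were seen. Promoters came from RefSeq (GRCr8), which is another build than the one in the notes, and no coordinates were carried between them.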

Additional observations from a re-analysis of the deposited data

Results flagged for a closer look

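Among 128 sets of 4 astrocyte libraries (32 members in 4 groups), 4 held a library whose gap to its nearest neighbour took up more of the group's range than Dixon's 95% critical value for 4 samples, where chance gives about 1 in 20. Idh3a was lowest in buffer replicate 4, at 85.9 CPM with its nearest neighbour at 104.1 CPM (0.984 of the range). Idh2 was highest in buffer replicate 3, at 186.4 CPM beside 168.4 CPM (0.853). Cpt1a was highest in buffer replicate 4, at 236.0 CPM beside 215.5 CPM (0.831). Etfa was highest in H2O replicate 4, at 110.7 CPM beside 104.4 CPM (0.839). The Idh2 fall with ENV was called in all fits without 1 library, that without buffer replicate 3 included.

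A further 11 values mark members whose response differed between microglia and astrocytes by the interaction test of edgeR, as the difference of log2 changes with its adjusted p. For ENV these were Me1 (2.58, adjusted p = 1.8e-05), Me2 (1.08, adjusted p = 0.00997), Idh1 (1.04, adjusted p = 0.00409), Fh (0.74, adjusted p = 0.00318), Acads (0.67, adjusted p = 0.0256) and Hsdl2 (-2.03, adjusted p = 1.29e-05). For LPS these were Me1 (1.97, adjusted p = 0.00413), Acads (0.95, adjusted p = 0.00347), Acadl (-0.64, adjusted p = 0.0158), Cpt2 (-0.90, adjusted p = 0.00689) and Hsdl2 (-1.66, adjusted p = 0.000826). Me1, Acads and Hsdl2 differed under both stimuli. Idh1 differed with ENV, being at 0.33 in microglia and -0.73 in astrocytes, and with LPS its difference was 0.28 ± 0.66 (adjusted p = 0.837).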

How the results depend on the processing

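Among the member results, the sign reversed in 1 astrocyte result and in the vehicle contrast, some of them for members not called at first. In LPS astrocytes Acadvl was at -0.33 in replicates 1 and 2 alone. In the vehicle contrast, library totals alone gave -0.22 for Cs, -0.24 for Idh3g, -0.26 for Dlst, -0.21 for Mdh2, -0.17 for Idh2, -0.14 for Acadl, -0.43 for Hadh, -0.41 for Hadha and -0.35 for Etfdh, and the buffer groups alone gave 0.056 for Idh3b and -0.27 for Idh1. Library totals put the median of all genes at -0.50 there.

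Library totals gave 4 members higher in ENV microglia, 8 lower in LPS microglia, 3 lower in the ENV response difference between cell types, and 5 higher and 22 lower in the vehicle contrast. A joint fit of 4 groups gave 3 lower in ENV microglia, 8 lower in LPS microglia and 1736 genes called in LPS astrocytes. Without both replicates 3 of the microglial LPS set, 5 members were lower with LPS, where 4262 of 12200 genes were called. In the ENV minus LPS difference, 8 genes were then called. DESeq2 called 2061 genes in LPS astrocytes, 64 in the microglial ENV minus LPS difference and 2714 in the LPS response difference. In the ENV response difference it called 7 members higher and 2 lower, where edgeR called 5 and 1. The cause of these shifts was not tested.

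With the replicate block, 4348 genes were called in ENV astrocytes and 2611 in LPS astrocytes, where 4 members were lower. The block gave 1 gene in the microglial ENV minus LPS difference, 3314 genes and 3 members lower in the ENV response difference, and 3029 genes and 4 members higher in the LPS response difference. In the vehicle contrast the block joined same-numbered libraries across cell types and vehicles, which the labels do not tie together and whose pairing was not checked. There it added Idh3a, Idh3g, Idh1, Mdh1 and Etfdh and lost Dlst. Beside these and the members named in the report, the block changed no other call of a member. For the lists of other genes and of markers it moved counts as given with each list. In ENV astrocytes replicates 1 and 2 alone gave 0 members lower and 372 genes (fewer libraries), and replicates 3 and 4 alone gave 1 and 950. In LPS astrocytes replicates 1 and 2 alone gave 1 member higher, Me2, 4 lower and 2970 genes, and replicates 3 and 4 alone gave 0 lower.

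Leaving out 1 library gave 3 to 11 members higher, 3 to 7 lower and 2466 to 5282 genes in ENV microglia, and 2 to 4 higher, 3 to 5 lower and 1351 to 3986 genes in LPS microglia. It gave 2 to 5 lower and 1487 to 2869 genes in ENV astrocytes, 0 to 1 lower and 236 to 681 genes in LPS astrocytes, and 0 to 4 genes in the microglial ENV minus LPS difference. It gave 4 to 8 higher, 1 to 2 lower and 1414 to 2287 genes in the ENV response difference, 2 to 3 higher, 3 lower and 1105 to 1820 genes in the LPS response difference, and 10 to 12 higher, 10 to 13 lower and 10346 to 10854 genes in the vehicle contrast. Library totals were an alternative added after the data were seen. Depth limits Ehhadh most in microglia, at 3 to 65 counts per library.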

Other observations

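The ratio of Hadha to Hadhb counts, whose genes start head to head, was 1.97 to 2.11 in ENV microglia and 1.84 to 1.94 in buffer microglia, and 2.02 to 2.29 in LPS microglia and 1.78 to 1.95 in H2O microglia. In astrocytes it was 1.36 to 1.51 with ENV and 1.28 to 1.35 with buffer, and 1.20 to 1.61 with LPS and 1.21 to 1.2965 with H2O. The groups were apart in 3 of these 4 comparisons and overlapped in LPS astrocytes, while neither gene was called in any of the 4. The ratio of Idh2 to Idh3a, the NADP-linked over the NAD-linked isocitrate dehydrogenase, was 1.07 to 1.20 in ENV astrocytes and 1.58 to 1.93 in buffer astrocytes, and the groups were apart. It was 1.10 to 1.34 in LPS astrocytes and 1.3004 to 1.90 in H2O astrocytes, with an overlap. These ratios were picked after the values were seen and were given no test. How often the ratios of other gene pairs were apart was not counted.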
